A study of Macaca mulatta with 27 samples.

Results

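The genes described here are 10 transcription factors of the neural crest, namely PAX3, PAX7, SNAI2, TWIST1, FOXD3, SOX9, SOX10, ETS1, NR2F1, and NR2F2. They were picked by symbol, and each of the 10 was found among the 17967 gene symbols of the deposited count tables. The study asked whether rhesus PSCs brought to a naive-like state gain the capacity to colonize host embryos, and RNA was sequenced from the cells before and after conversion. There were 6 libraries of Primed cells and 3 libraries for each of 7 protocols, namely TL2i and TL-CDK8i, NHSM-v and E-NHSM, LCDM (EPS), 4i/L/b, and t2iLGöY. By the study's account, the cells were LyonES-tGFP-(S3), a rhesus embryonic stem cell line isolated as a clone, which carries a tauGFP transgene under the ubiquitous CAG promoter and a hormone-dependent STAT3-ERT2 transgene. All groups therefore share the genotype, and no group comes from an independent line. In TL2i, STAT3-ERT2 is activated by tamoxifen, and LIF is combined with inhibitors of MEK and GSK3β. TL-CDK8i keeps the tamoxifen and LIF and has an inhibitor of the kinases CDK8 and CDK19 in place of those of MEK and GSK3β. E-NHSM and NHSM-v are versions of the naive human stem cell medium. The labels number the libraries of a group without stating that they are separate cultures, so that p-values measure only the spread between these libraries, which may be technical.

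The neural crest is a transient cell population of the vertebrate embryo that forms where the neural plate meets the surface ectoderm. WNT, BMP, and FGF signals turn on border factors such as PAX3 and PAX7, and the specifiers FOXD3, SNAI2, SOX9, SOX10, ETS1, and TWIST1 follow as the cells leave the neuroepithelium and migrate to form melanocytes, glia, peripheral neurons, and the cartilage of the face. NR2F1 and NR2F2 are nuclear receptors that act with TFAP2A at enhancers of crest cells. None of the 10 genes is exclusive to the crest. PAX3 and PAX7 also mark the dorsal neural tube, SOX9 works in cartilage, SNAI2 and TWIST1 in mesenchyme, ETS1 in blood and endothelium, and FOXD3 in pluripotent cells.

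Levels are given as CPM, counts scaled to a common library size, with TMM normalization over all 27 libraries. Where 3 values follow a protocol, they are those of its libraries 1, 2, and 3. Library totals ranged from 7111886 to 20760914 counts, and 3 counts, taken as the floor of detection, corresponded to between 0.141 and 0.429 CPM. This floor covers counting error only. No pair of libraries within a group was alike to within counting error. Over the 36 pairs, chi-square per gene was 3.98 or more, and a value of about 1 is what counting error gives. Differences were tested with edgeR's quasi-likelihood test, and a gene was called higher or lower when its Benjamini-Hochberg adjusted p over all genes tested (edgeR adjusted p) was under 0.05. Log2 fold changes are given ± SE. The same 6 Primed libraries serve in all 7 comparisons with Primed cells, so these comparisons are not independent of each other. CPM is not corrected for transcript length, and levels are therefore compared between groups and not between genes. Of the pluripotency genes, POU5F1 had 1182 ± 67.0 CPM (SD, n = 6) in Primed cells and 1365 ± 31.7 CPM (SD, n = 3) in E-NHSM cells. It was at 502 ± 95.1 CPM in TL-CDK8i cells and at means of 0.29 to 6.44 CPM in the other 5 protocols (n = 3 each). NANOG was at or under the floor in NHSM-v, 4i/L/b, t2iLGöY, and LCDM (EPS), so that these groups, which the labels call naive cells, had no detectable transcript of a defining pluripotency gene. In bulk RNA, a larger share of cells that express a gene and more RNA per cell cannot be told apart.

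In 6 of the protocols, all but E-NHSM, most of the crest regulators that were called were higher than in Primed cells. NR2F1, PAX3, and SOX9 were higher in each of the 6, and ETS1 was higher in every protocol but LCDM (EPS). FOXD3 was lower in every protocol but TL2i. In E-NHSM cells, ETS1 and TWIST1 were higher and FOXD3, NR2F1, and NR2F2 were lower. In TL2i, 9 of 10 tested were called, all higher, beside 25.6% of all genes called higher and 25.2% lower. In 4i/L/b, 8 of 10 were higher and 1 lower, beside 26.6% and 29.0% of all genes. The same numbers held in t2iLGöY, beside 27.1% and 27.2%. In NHSM-v, 6 of 9 were higher and 1 lower, beside 28.0% and 30.6%. TL-CDK8i cells had 7 of 9 higher and 1 lower, beside 22.3% and 23.8%. LCDM (EPS) cells had 5 of 10 higher and 3 lower, beside 28.2% and 28.9%, and their 3 lower genes were FOXD3, SNAI2, and ETS1. E-NHSM cells had 2 of 9 higher and 3 lower, beside 11.1% and 15.1%. PAX7 did not pass the filter on low counts in E-NHSM, NHSM-v, and TL-CDK8i. A gene that is silent in Primed cells enters a test only through the protocol in which it is counted, so the counts above describe the genes tested and not all 10.

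Separation of the libraries was counted for all 10 regulators. In 4i/L/b and t2iLGöY, 8 lay above every Primed library and 1 below, where 30.2% and 26.7% of all genes tested lay above and 25.5% and 25.1% below. In TL-CDK8i it was again 8 above and 1 below, beside 26.1% and 20.0% of genes, and in TL2i 8 above and 0 below, beside 28.1% and 22.7%. NHSM-v had 5 above and 1 below, beside 28.7% and 26.8%, and LCDM (EPS) 5 above and 3 below, beside 29.3% and 26.1%. In E-NHSM only ETS1 and TWIST1 lay above, and 4 regulators lay below, beside 14.6% and 14.8%.

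**Figure D1:**
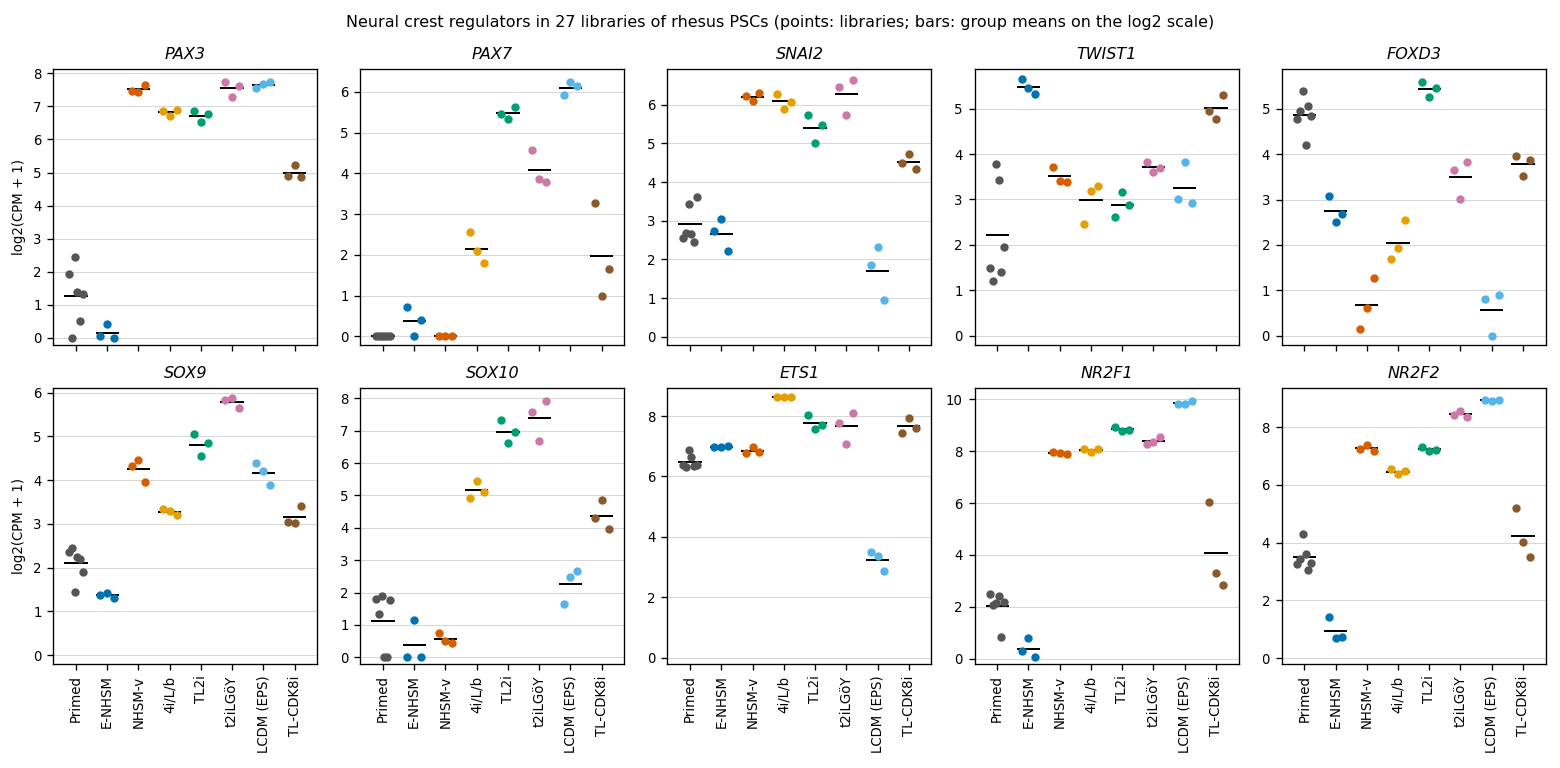
Level of each regulator in every library, as log2(CPM + 1) on the vertical axis, by group. Points are libraries and bars are group means on that scale. PAX3, NR2F1, and SOX9 lay above all Primed libraries in 6 of the 7 protocols, ETS1 was lowest in LCDM (EPS) at 6.33 to 10.2 CPM, and TWIST1 was highest in E-NHSM at 39.1 to 49.4 CPM.

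PAX3 is a paired-box factor that defines the neural plate border and later the dorsal neural tube. In Primed cells it was counted between 0 and 4.43 CPM (median 1.57, n = 6). The 3 libraries gave 186, 202, and 212 CPM in LCDM (EPS), 214, 155, and 197 CPM in t2iLGöY, and 176, 172, and 198 CPM in NHSM-v. They gave 115, 104, and 117 CPM in 4i/L/b, 115, 92.0, and 107 CPM in TL2i, and 28.8, 36.1, and 27.8 CPM in TL-CDK8i. Every library of these 6 protocols lay above every Primed library, and LCDM (EPS), t2iLGöY, and NHSM-v overlapped each other at the top of the order. E-NHSM libraries, at 0.0471, 0.334, and 0 CPM, were within the Primed range. The log2 fold change was largest in LCDM (EPS), at 6.94 ± 0.43 (edgeR adjusted p = 8.5e-09). In t2iLGöY it was 6.87 ± 0.45 (edgeR adjusted p = 7.4e-09), and in NHSM-v 6.77 ± 0.44 (edgeR adjusted p = 5.2e-09). The smallest of the 6 was that of TL-CDK8i, at 4.11 ± 0.63 (edgeR adjusted p = 9.5e-05). In E-NHSM the gene was not called (-3.74 ± 1.68, edgeR adjusted p = 0.11).

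PAX7, the paralog of PAX3 with an overlapping role at the border, had no count in any of the 6 Primed libraries. The same was true of the 3 NHSM-v libraries, although PAX3 was high there. In LCDM (EPS) PAX7 was at 59.4, 75.2, and 69.8 CPM, and in TL2i at 42.9, 39.6, and 48.1 CPM. Lower levels were measured in t2iLGöY, at 23.0, 13.4, and 12.9 CPM, in 4i/L/b, at 4.90, 3.28, and 2.50 CPM, and in TL-CDK8i, at 8.60, 1.00, and 2.13 CPM. The first TL-CDK8i library stood above the other two, and the order from LCDM (EPS) to TL2i to t2iLGöY had no overlap between neighbours. E-NHSM libraries had 0.659, 0, and 0.323 CPM. Set against a floor of 3 counts in each Primed library, PAX7 was at least 225-fold higher in LCDM (EPS) (edgeR adjusted p = 9.6e-09), at least 144-fold higher in TL2i (6.2e-08), at least 54.2-fold higher in t2iLGöY (2.8e-06), and at least 11.8-fold higher in 4i/L/b (0.00056). For TL-CDK8i the bound was at least 12.9-fold, or at least 5.17-fold without its first library, and this gene was kept out of its test by the filter on low counts. With no filter, its edgeR adjusted p was 0.00083.

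**Figure D2:**
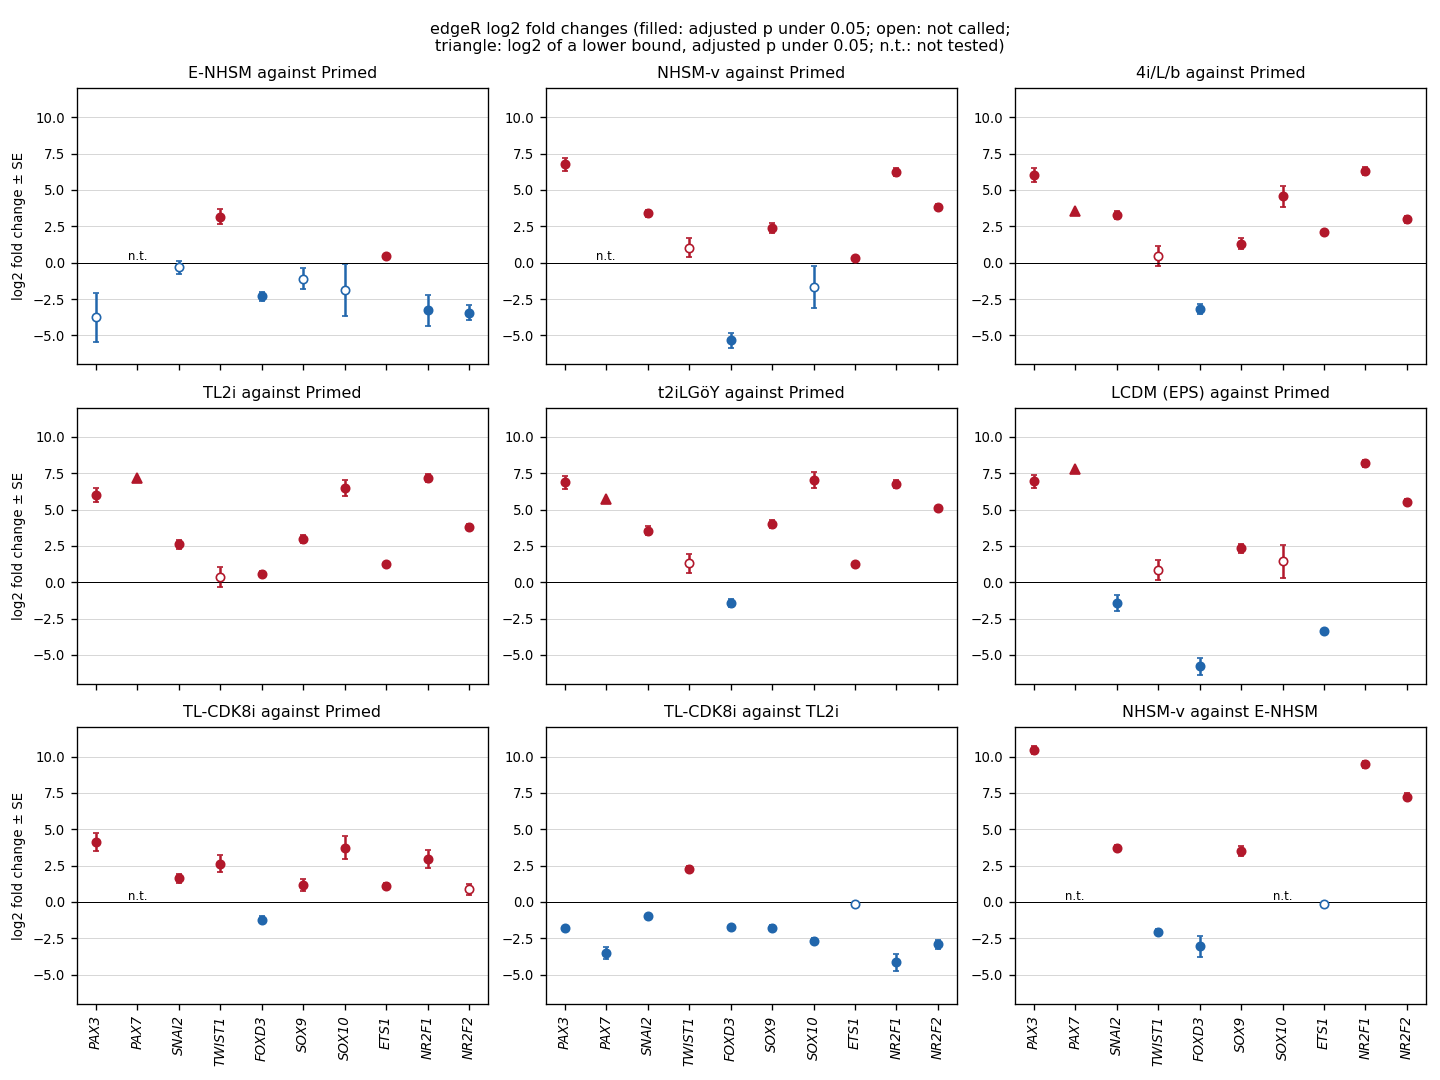
Log2 fold changes of the 10 regulators (vertical axis, with SE as bars) for each protocol against Primed and for the direct comparisons between protocols. Filled points were called and open points were not. For PAX7, where no Primed library had a count, triangles mark the log2 of the lower bound in place of a fitted value, from at least 11.8-fold in 4i/L/b to at least 225-fold in LCDM (EPS).

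SNAI2, a zinc-finger repressor that drives epithelial cells to become migratory, was at between 4.49 and 11.3 CPM (median 5.35, n = 6) in Primed cells. Its libraries reached 86.8, 52.6, and 98.9 CPM in t2iLGöY, 73.9, 66.9, and 77.8 CPM in NHSM-v, and 76.7, 58.5, and 66.7 CPM in 4i/L/b. In TL2i they were at 52.2, 31.0, and 43.6 CPM and in TL-CDK8i at 21.6, 25.3, and 19.2 CPM. These 5 protocols lay above the Primed libraries without overlap, and the upper 3 overlapped each other. LCDM (EPS) went the other way, with 2.62, 4.01, and 0.920 CPM, below every Primed library. E-NHSM, at 5.70, 7.23, and 3.66 CPM, overlapped with Primed cells. SNAI2 was called higher in t2iLGöY (3.56 ± 0.30, edgeR adjusted p = 1e-07), NHSM-v (3.39 ± 0.27, edgeR adjusted p = 4.6e-08), and 4i/L/b (3.25 ± 0.27, edgeR adjusted p = 2.8e-07). Smaller increases were called in TL2i (2.62 ± 0.30, edgeR adjusted p = 7e-06) and TL-CDK8i (1.63 ± 0.32, edgeR adjusted p = 0.00085). The decrease in LCDM (EPS) (-1.44 ± 0.56, edgeR adjusted p = 0.041) lost its call when any of 4 libraries was left out, namely Primed J3 or K3 or LCDM (EPS) 1 or 3, with the log2 fold change between -1.93 and -1.03 over all 9 libraries left out in turn.

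TWIST1, a basic helix-loop-helix factor of migrating crest and of mesenchyme, had a pattern unlike that of the other genes. Primed libraries ranged between 1.29 and 12.7 CPM (median 2.31, n = 6), with J3 and K1 well above the other 4. E-NHSM libraries were the highest, at 49.4, 42.6, and 39.1 CPM, followed by TL-CDK8i at 29.9, 26.4, and 38.6 CPM. Both lay above all Primed libraries, and E-NHSM lay above TL-CDK8i. The other 5 protocols overlapped with the Primed range, with 13.2, 11.1, and 12 CPM in t2iLGöY, 12.2, 9.67, and 9.42 CPM in NHSM-v, and 7.06, 13.2, and 6.6 CPM in LCDM (EPS). 4i/L/b had 4.52, 8.14, and 8.85 CPM and TL2i 5.10, 7.92, and 6.29 CPM. The gene was called higher in E-NHSM (3.14 ± 0.52, edgeR adjusted p = 0.00016) and in TL-CDK8i (2.63 ± 0.58, edgeR adjusted p = 0.002), and it was not called in the other protocols. In t2iLGöY (1.31 ± 0.65, edgeR adjusted p = 0.11) and NHSM-v (1.04 ± 0.66, edgeR adjusted p = 0.19) the result rested on Primed J3. Without that library the values were 1.80 (edgeR adjusted p = 0.017) and 1.55 (edgeR adjusted p = 0.033), both called.

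FOXD3 is a forkhead factor that acts in the pluripotent epiblast and again as an early specifier of the crest. It was the regulator most often called lower, in 6 of the 7 protocols. Primed cells had between 17.5 and 41.1 CPM (median 28.8, n = 6). The lowest levels were those of LCDM (EPS), at 0.740, 0, and 0.866 CPM, and NHSM-v, at 0.113, 0.514, and 1.41 CPM, which overlapped. 4i/L/b libraries had 2.21, 2.80, and 4.81 CPM and E-NHSM libraries 7.44, 4.67, and 5.38 CPM. In t2iLGöY the gene was at 11.6, 7.0, and 13.3 CPM and in TL-CDK8i at 14.5, 10.5, and 13.7 CPM. All these libraries were below the lowest Primed library. In TL2i, by contrast, FOXD3 was at 47.6, 37.4, and 43.1 CPM, which overlapped with the highest Primed library, J3, and lay above the other 5. The log2 fold change was -5.78 ± 0.60 (edgeR adjusted p = 1.7e-06) in LCDM (EPS) and -5.35 ± 0.49 (edgeR adjusted p = 2.3e-07) in NHSM-v. It was -3.19 ± 0.33 (edgeR adjusted p = 2.3e-06) in 4i/L/b and -2.32 ± 0.28 (edgeR adjusted p = 6.6e-06) in E-NHSM. Without NHSM-v library 3, the value in NHSM-v was -6.46, and without LCDM (EPS) library 2, that in LCDM (EPS) was -5.14, both called. The smallest decreases were those of t2iLGöY (-1.43 ± 0.29, edgeR adjusted p = 0.00074) and TL-CDK8i (-1.23 ± 0.25, edgeR adjusted p = 0.0011). The increase in TL2i (0.55 ± 0.21, edgeR adjusted p = 0.042) was not called with all 8 groups in 1 fit (edgeR adjusted p = 0.17), with Primed libraries J alone (edgeR adjusted p = 0.11), or after any of 7 libraries was left out, all but Primed J3 and K1, where it ranged from 0.44 to 0.67 over the 9.

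SOX9, an SRY-box factor needed for crest survival and for cartilage, was at between 1.71 and 4.42 CPM (median 3.68, n = 6) in Primed cells. In t2iLGöY its libraries were at 55.8, 57.7, and 49.0 CPM and in TL2i at 32.0, 22.4, and 27.8 CPM. NHSM-v had 19.1, 21.1, and 14.6 CPM and LCDM (EPS) 20.0, 17.6, and 13.8 CPM. 4i/L/b had 9.13, 8.87, and 8.18 CPM and TL-CDK8i 7.23, 7.13, and 9.67 CPM. All 6 protocols were above all Primed libraries, t2iLGöY and TL2i stood clear of the rest, and NHSM-v overlapped with LCDM (EPS) and 4i/L/b with TL-CDK8i. E-NHSM libraries, at 1.60, 1.67, and 1.45 CPM, were just under the lowest Primed library and were not called (-1.11 ± 0.71, edgeR adjusted p = 0.28). The gene was higher in t2iLGöY (4.01 ± 0.25, edgeR adjusted p = 5e-09), TL2i (3.00 ± 0.29, edgeR adjusted p = 1.2e-06), NHSM-v (2.39 ± 0.35, edgeR adjusted p = 3e-05), and LCDM (EPS) (2.33 ± 0.33, edgeR adjusted p = 3.8e-05). The increase was smaller in 4i/L/b (1.31 ± 0.41, edgeR adjusted p = 0.014) and in TL-CDK8i (1.18 ± 0.43, edgeR adjusted p = 0.036). In 4i/L/b it lost its call without library 1 or 2 (edgeR adjusted p = 0.056 and 0.054). In TL-CDK8i it did so without Primed K2 or any of the 3 TL-CDK8i libraries (edgeR adjusted p from 0.053 to 0.17).

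SOX10 is a related SRY-box factor that marks migrating crest and its glial and melanocyte lineages. In Primed libraries it was between 0 and 2.71 CPM (median 1.95, n = 6). It was highest in t2iLGöY, at 191, 102, and 241 CPM, and in TL2i, at 158, 97.5, and 123 CPM, which overlapped. It was at 29.4, 42.5, and 33.5 CPM in 4i/L/b and at 18.8, 27.8, and 14.7 CPM in TL-CDK8i. All 4 lay above Primed cells, and the second t2iLGöY library was well below the other two. LCDM (EPS), at 2.16, 4.62, and 5.41 CPM, overlapped with Primed cells. NHSM-v had 0.677, 0.411, and 0.352 CPM and E-NHSM 0, 1.22, and 0 CPM, both within the Primed range. In NHSM-v cells PAX3, SNAI2, and SOX9 were called higher and SOX10 was not, with 4 to 6 counts in each of its libraries. The log2 fold change was 7.04 ± 0.54 (edgeR adjusted p = 4.6e-08) in t2iLGöY and 6.51 ± 0.54 (edgeR adjusted p = 3.1e-07) in TL2i. In 4i/L/b it was 4.56 ± 0.72 (edgeR adjusted p = 0.00011) and in TL-CDK8i 3.74 ± 0.81 (edgeR adjusted p = 0.0016). It was not called in LCDM (EPS) (1.44 ± 1.11, edgeR adjusted p = 0.29), NHSM-v (-1.65 ± 1.45, edgeR adjusted p = 0.35), or E-NHSM (-1.88 ± 1.77, edgeR adjusted p = 0.48). With all 8 groups in 1 fit it was called in LCDM (EPS), at 1.58 (edgeR adjusted p = 0.016).

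ETS1 is an ETS-domain factor of the cranial crest and of endothelial and blood cells, and it was counted in every library at 6.33 CPM or more. Primed libraries had between 79.1 and 116 CPM (median 82.1, n = 6). The level in 4i/L/b was 398, 392, and 396 CPM, above all other libraries. TL2i had 263, 191, and 206 CPM, t2iLGöY 219, 134, and 273 CPM, and TL-CDK8i 171, 246, and 193 CPM, and these 3 overlapped. E-NHSM, at 125, 124, and 127 CPM, lay just above Primed cells, and NHSM-v, at 108, 126, and 111 CPM, overlapped with them. LCDM (EPS) had 10.2, 9.24, and 6.33 CPM, far below every other library. ETS1 was called higher in 4i/L/b (2.10 ± 0.12, edgeR adjusted p = 4.3e-09), TL2i (1.29 ± 0.14, edgeR adjusted p = 3.1e-06), t2iLGöY (1.25 ± 0.18, edgeR adjusted p = 3e-05), and TL-CDK8i (1.13 ± 0.14, edgeR adjusted p = 1.6e-05). The difference was small in E-NHSM (0.48 ± 0.13, edgeR adjusted p = 0.0088). In NHSM-v (0.33 ± 0.13, edgeR adjusted p = 0.045) it was not called without NHSM-v library 2 or 3 (edgeR adjusted p = 0.19 and 0.072), with upper-quartile normalization (0.052), or with Primed libraries J alone (0.09). In LCDM (EPS) the gene was 10.5-fold lower (-3.38 ± 0.20, edgeR adjusted p = 5.3e-09).

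NR2F1, a nuclear receptor of the COUP-TF family that acts in crest and in the forebrain, was between 0.760 and 4.58 CPM (median 3.49, n = 6) in Primed cells. LCDM (EPS) libraries reached 912, 897, and 985 CPM and TL2i libraries 490.4, 434, and 453 CPM. The level was 313, 329.9, and 373 CPM in t2iLGöY, 271, 251, and 273 CPM in 4i/L/b, and 251, 243, and 234 CPM in NHSM-v. Each of these 5 protocols was far above Primed cells, and only 4i/L/b and NHSM-v overlapped with each other. TL-CDK8i libraries were uneven, at 65.0, 8.80, and 6.09 CPM, with the first far above the other two. E-NHSM libraries had 0.236, 0.723, and 0.0538 CPM, below all Primed libraries. The log2 fold change was 8.19 ± 0.25 (edgeR adjusted p = 7e-12) in LCDM (EPS), a 282-fold difference of means, and 7.16 ± 0.26 (edgeR adjusted p = 9.3e-11) in TL2i. It was 6.75 ± 0.27 (edgeR adjusted p = 3.4e-11) in t2iLGöY, 6.32 ± 0.27 (edgeR adjusted p = 4.2e-10) in 4i/L/b, and 6.21 ± 0.27 (edgeR adjusted p = 7.3e-11) in NHSM-v. In TL-CDK8i it was 2.97 ± 0.63 (edgeR adjusted p = 0.0014), and without the first TL-CDK8i library it was 1.14 and not called (edgeR adjusted p = 0.18). In E-NHSM the gene was lower (-3.27 ± 1.07, edgeR adjusted p = 0.03), a value that moved to -4.41 without E-NHSM 2 and a call that was lost without Primed J1, K1, or K3 or E-NHSM 1 or 3 (edgeR adjusted p from 0.051 to 0.11).

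NR2F2, the second COUP-TF receptor, which is also widespread in mesenchyme, had between 7.33 and 18.9 CPM (median 9.34, n = 6) in Primed cells. It was at 492, 477, and 493 CPM in LCDM (EPS), 346, 375, and 329.7 CPM in t2iLGöY, and 153, 168, and 145 CPM in NHSM-v. TL2i had 159, 143, and 146 CPM and 4i/L/b 92.3, 81.6, and 88.3 CPM. These 5 protocols lay above all Primed libraries, and NHSM-v and TL2i overlapped. TL-CDK8i, at 35.4, 15.2, and 10.2 CPM, overlapped with Primed cells and was again highest in the first library. E-NHSM, at 1.70, 0.612, and 0.646 CPM, was below all Primed libraries. NR2F2 was higher in LCDM (EPS) (5.53 ± 0.20, edgeR adjusted p = 3.9e-11), t2iLGöY (5.08 ± 0.21, edgeR adjusted p = 4.4e-11), NHSM-v (3.84 ± 0.22, edgeR adjusted p = 1.3e-09), TL2i (3.81 ± 0.22, edgeR adjusted p = 7e-09), and 4i/L/b (2.99 ± 0.23, edgeR adjusted p = 1.3e-07). It was lower in E-NHSM (-3.43 ± 0.51, edgeR adjusted p = 6.3e-05), and at -4.08 without E-NHSM 1, where it was also called. In TL-CDK8i (0.86 ± 0.38, edgeR adjusted p = 0.074) it was not called with all libraries, and it was called without Primed J3, the highest Primed library, at 1.09 (edgeR adjusted p = 0.016), without TL-CDK8i 3, at 1.21 (edgeR adjusted p = 0.023), with Primed libraries K alone, at 1.10 (edgeR adjusted p = 0.037), and with all 8 groups in 1 fit (edgeR adjusted p = 0.0025). A RefSeq gene table, whose build may differ from that of the counts and which was used for names only, places a protein-coding gene over NR2F2 and lncRNA genes over ETS1 and SOX10. The strand setting of the counting is not given in the sources used here, so reads from these partners may be included.

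TL-CDK8i and TL2i differ in their kinase inhibitors, and the direct comparison asks how the regulators differ with that exchange. All but ETS1 were called. In TL-CDK8i cells, 8 of 10 were lower and 1 was higher than in TL2i cells, beside 33.3% of all genes called lower and 31.5% higher. The same 8 lay below every TL2i library and TWIST1 above, where 34.8% of all genes lay below and 35.5% above. NR2F1 had the largest fitted difference, -4.15 ± 0.57 (edgeR adjusted p = 2.5e-05), followed by PAX7 (-3.53 ± 0.40, edgeR adjusted p = 4.3e-06), NR2F2 (-2.92 ± 0.29, edgeR adjusted p = 1.3e-06), and SOX10 (-2.67 ± 0.21, edgeR adjusted p = 1.1e-07). PAX3 (-1.79 ± 0.12, edgeR adjusted p = 3.5e-08), SOX9 (-1.80 ± 0.18, edgeR adjusted p = 1.5e-06), and FOXD3 (-1.76 ± 0.15, edgeR adjusted p = 3.5e-07) were lower by similar amounts. SNAI2 differed less (-0.98 ± 0.18, edgeR adjusted p = 0.00025). TWIST1 was the gene that was higher in TL-CDK8i (2.27 ± 0.20, edgeR adjusted p = 3.3e-07). ETS1, with -0.15 ± 0.14 (edgeR adjusted p = 0.35), was not called, and its libraries overlapped. For NR2F1 the difference ranged from -6.00 to -3.65 and for PAX7 from -4.80 to -3.08 as each of the 6 libraries was left out, and both remained called. Without TL-CDK8i library 1, NR2F1 was at -6.00, PAX7 at -4.80, and NR2F2 at -3.61.

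NHSM-v and E-NHSM, versions of 1 medium, differed in most of the regulators tested. Of 8 regulators tested, 5 were higher and 2 were lower in NHSM-v than in E-NHSM cells, beside 33.4% of all genes called higher and 34.8% lower. Without overlap, 5 lay above and 2 below the E-NHSM libraries, where 36.4% and 37.6% of all genes did. PAX3 was higher by 10.45 ± 0.28 (edgeR adjusted p = 2.2e-13), NR2F1 by 9.48 ± 0.24 (edgeR adjusted p = 1.1e-13), and NR2F2 by 7.24 ± 0.23 (edgeR adjusted p = 1.6e-12). The sizes depended on single E-NHSM libraries. Without E-NHSM 2, PAX3 was at 12.39 and NR2F1 at 10.57, and without E-NHSM 1, NR2F2 was at 7.93, all called. SNAI2 (3.71 ± 0.22, edgeR adjusted p = 1.3e-09) and SOX9 (3.52 ± 0.33, edgeR adjusted p = 3.1e-07) were also higher. TWIST1 (-2.08 ± 0.19, edgeR adjusted p = 2.2e-07) and FOXD3 (-3.05 ± 0.74, edgeR adjusted p = 0.002) were lower, and FOXD3 was at -4.16 and called without NHSM-v 3. ETS1 (-0.13 ± 0.09, edgeR adjusted p = 0.2) was not called, and PAX7 and SOX10 had too few counts to be tested.

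Related factors were not always found together. NHSM-v cells had PAX3 at 172 CPM or more and no count of PAX7, whereas LCDM (EPS) and TL2i cells had both. In the same way SOX9 was above Primed cells in NHSM-v and LCDM (EPS), where SOX10 overlapped with Primed cells, and both were above Primed cells in TL2i, t2iLGöY, 4i/L/b, and TL-CDK8i. Of the EMT factors among the regulators, SNAI2 and TWIST1 were both called higher in TL-CDK8i. SNAI2 alone was called higher in 4 protocols and TWIST1 alone in E-NHSM. Their paralogs SNAI1 and TWIST2, from the list of other crest transcription factors and chosen after their values were seen, were not called higher in any protocol. SNAI1 was called lower in all 7 protocols, and TWIST2 was called lower in 4 of the 7. NR2F1 and NR2F2 moved closely together, with a Pearson correlation of log2 CPM of 0.964 over the 27 libraries. For PAX3 and PAX7 it was 0.633, for SOX9 and SOX10 0.679, and for SNAI2 and TWIST1 0.0701. NR2F1 and PAX3 had 0.944, and ETS1 was most like SNAI2 among the regulators, at 0.755. TWIST1 correlated with none of the other 9 beyond -0.236 and 0.151. These values are descriptions across libraries that fall into 8 groups and differ in depth, and they carry no test. The base composition of the libraries was not measured.

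**Figure D3:**
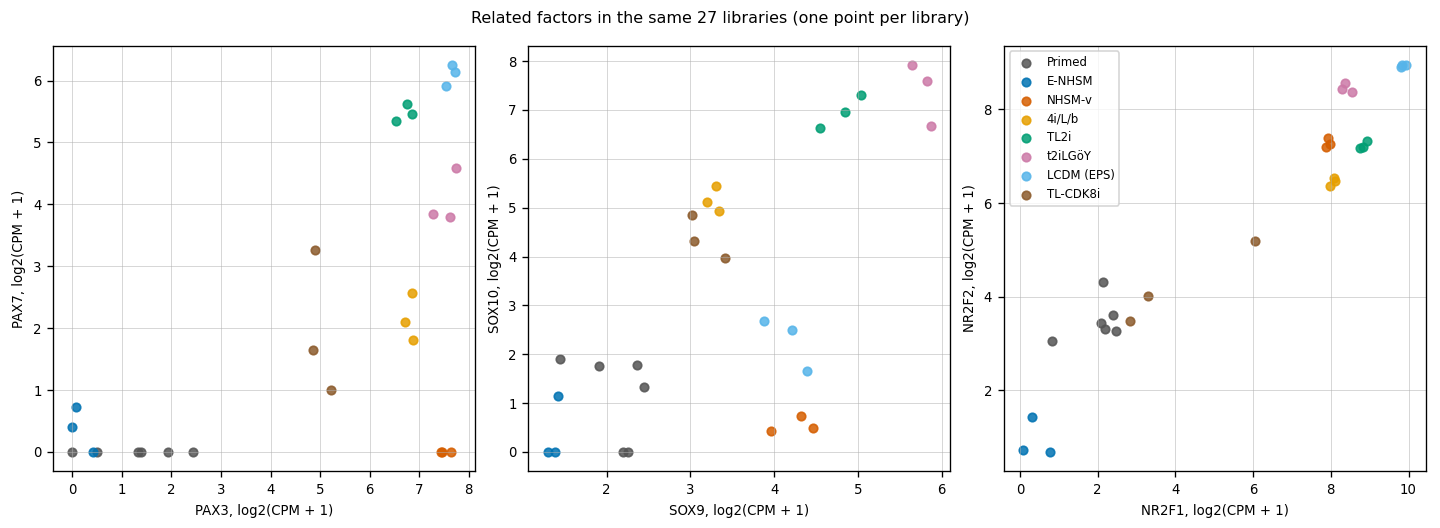
Levels of related factors in the same library, PAX7 against PAX3, SOX10 against SOX9, and NR2F2 against NR2F1, as log2(CPM + 1) on both axes, with a point per library coloured by group. NR2F1 and NR2F2 lie along a line (r = 0.964, n = 27), while NHSM-v cells have high PAX3 without PAX7 and SOX9 without SOX10.

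The search for the genes most like each regulator ran over 11895 genes (mean log2 CPM of 1 or more). The gene most like each regulator over the 27 libraries was found by the same correlation. KIF24 was the nearest to both NR2F1 (r = 0.969) and NR2F2 (r = 0.983). ZFHX3 was the nearest to PAX3 (r = 0.963), DLC1 to SNAI2 (r = 0.942), TTC28 to SOX9 (r = 0.94), and PASK to PAX7 (r = 0.921). BCAR3 was the nearest to ETS1 (r = 0.916), VTN to SOX10 (r = 0.893), GPRC5C to FOXD3 (r = 0.849), and BCL2L13 to TWIST1 (r = 0.798). The next genes were PLEKHG4B and PLPP5 for NR2F1, WHSC1 and NIN for NR2F2, ZNF800 and PHC2 for PAX3, CASZ1 and BBS2 for PAX7, and TNFRSF19 and IGFBP5 for SNAI2. For SOX9 they were LRRC55 and ZFHX4, for SOX10 NPR3 and LOXL3, for ETS1 PDE3A and RBMS1, for FOXD3 EPPK1 and PCDH1, and for TWIST1 EIF4EBP1 and SFRP4.

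Other genes of the crest were followed in 8 lists. Genes silent in Primed cells enter a test only through a protocol in which they are counted, so the numbers tested depend on the outcome, and the counts below are descriptions. Over all genes tested, 22.3% to 28.2% were called higher in the 6 protocols other than E-NHSM and 23.8% to 30.6% lower, and in E-NHSM the shares were 11.1% and 15.1%. The list of signals that induce the crest holds 11 genes. In TL2i 10 were higher and 1 was lower, in TL-CDK8i 9 were higher and none lower, and in NHSM-v and 4i/L/b 8 were higher and 2 lower. In t2iLGöY 8 were higher and 1 lower, and in LCDM (EPS) 7 were higher and 2 lower, with 10 of the 11 tested in each of these but TL2i. BMP5, a ligand of the BMP pathway, had no count in Primed cells and was called in these 6 protocols, at least 549-fold higher in TL2i and at least 38.4-fold higher in TL-CDK8i, or at least 14.3-fold without TL-CDK8i library 1. WNT3A, a WNT ligand of the dorsal neural tube, had at most 1 count in a Primed library and was at least 17.5-fold higher in TL-CDK8i and at least 325-fold higher in t2iLGöY. LEF1, the transcription factor and target of WNT signals, had a Primed level of 0.148 ± 0.362 CPM (SD, n = 6) and was at 152 ± 16.5 CPM in TL2i, 148 ± 8.38 CPM in 4i/L/b, and 0.0185 ± 0.0321 CPM in E-NHSM (SD, n = 3 each). In E-NHSM, 6 signal genes were tested, of which 2 were higher and 1 was lower. FGF8 and BMP4, signals of the same list chosen after their values were seen, mostly went the other way. Over the 7 protocols, FGF8 was called lower in 5 and higher in 0, and BMP4 was called lower in 4 and higher in 2.

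Neural plate border factors divided. In t2iLGöY 6 of 11 tested were higher and 2 were lower, and in LCDM (EPS) 6 of 9 were higher and 2 were lower. TL2i had 5 higher and 2 lower of 11, NHSM-v 5 higher and 3 lower of 9, TL-CDK8i 4 higher and 2 lower of 9, and 4i/L/b 3 higher and 3 lower of 9. In E-NHSM none of 7 was higher and 3 were lower. ZIC1, a zinc-finger factor of the border and dorsal neural tube, was called higher in 6 protocols. Its Primed level was 0.745 ± 0.740 CPM (SD, n = 6). It was at 588 ± 63.9 CPM in t2iLGöY, 364 ± 25.7 CPM in LCDM (EPS), 345 ± 15.7 CPM in NHSM-v, and 13.8 ± 13.6 CPM in TL-CDK8i (SD, n = 3 each). The BMP-responsive homeobox factors MSX1 and MSX2 were called higher in the same 6. MSX1 was at 56.3 ± 12.2 CPM in t2iLGöY and 52.2 ± 3.93 CPM in TL2i, and MSX2 was highest in NHSM-v, at 49.8 ± 7.57 CPM (SD, n = 3 each). ZIC2, ZIC5, and GBX2, of the same list and chosen after their values were seen, mostly went the other way. ZIC2 was called lower in all 7 protocols. ZIC5 was called lower in 5 and higher in 0, and GBX2 was called lower in 3 and higher in 1.

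Of 15 or 16 other crest transcription factors tested, between 5 and 8 were higher and between 4 and 7 lower in the 6 protocols. In E-NHSM 1 was higher and 8 were lower of 13. TFAP2B, an AP-2 factor of crest and sympathetic cells, was called higher in 6 protocols, with 315 ± 9.82 CPM in t2iLGöY and 265 ± 1.70 CPM in LCDM (EPS) (SD, n = 3 each) beside 1.01 ± 1.46 CPM in Primed cells (SD, n = 6). SOX5, a partner of SOX9 and SOX10, was called higher in the same 6. MYC, active in the early crest as well as in proliferating stem cells, was lower in all 7, from -1.17 ± 0.10 (edgeR adjusted p = 3.2e-07) in TL-CDK8i to -6.25 ± 0.39 (edgeR adjusted p = 9.7e-09) in LCDM (EPS). Of the 16 delamination and migration genes, 11 were higher in t2iLGöY and in TL2i, 10 in both TL-CDK8i and 4i/L/b, 8 in NHSM-v, 6 in LCDM (EPS), and 3 in E-NHSM. The number lower was 2 in TL2i, 3 in t2iLGöY and in 4i/L/b, 4 in TL-CDK8i and in NHSM-v, 7 in LCDM (EPS), and 6 in E-NHSM. All 16 were tested in every protocol, and their median log2 fold change was 1.55 in 4i/L/b, 1.33 in TL2i, 1.16 in TL-CDK8i, 1.13 in t2iLGöY, 0.79 in NHSM-v, 0.02 in LCDM (EPS), and -1.13 in E-NHSM, beside medians of all genes from -0.02 to 0.07. EDNRB, the endothelin receptor of migrating crest, was highest in t2iLGöY at 163 ± 54.2 CPM, and CXCR4, a chemokine receptor, in LCDM (EPS) at 127 ± 9.11 CPM (SD, n = 3 each). Both were called higher in 6 protocols. CDH1, the epithelial cadherin lost at delamination, was lower in those 6 and was at least 334-fold lower in t2iLGöY, where it had no count. In E-NHSM CDH1 was higher, at 232 ± 13.5 CPM (SD, n = 3) beside 69.2 ± 31.2 CPM in Primed cells (SD, n = 6). Other genes of this list, chosen after their values were seen, differed from EDNRB and CXCR4. B3GAT1 and VCAN were each called lower in 4 protocols and higher in 1, and CDH6 was called higher in 4 and lower in 3.

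**Figure D4:**
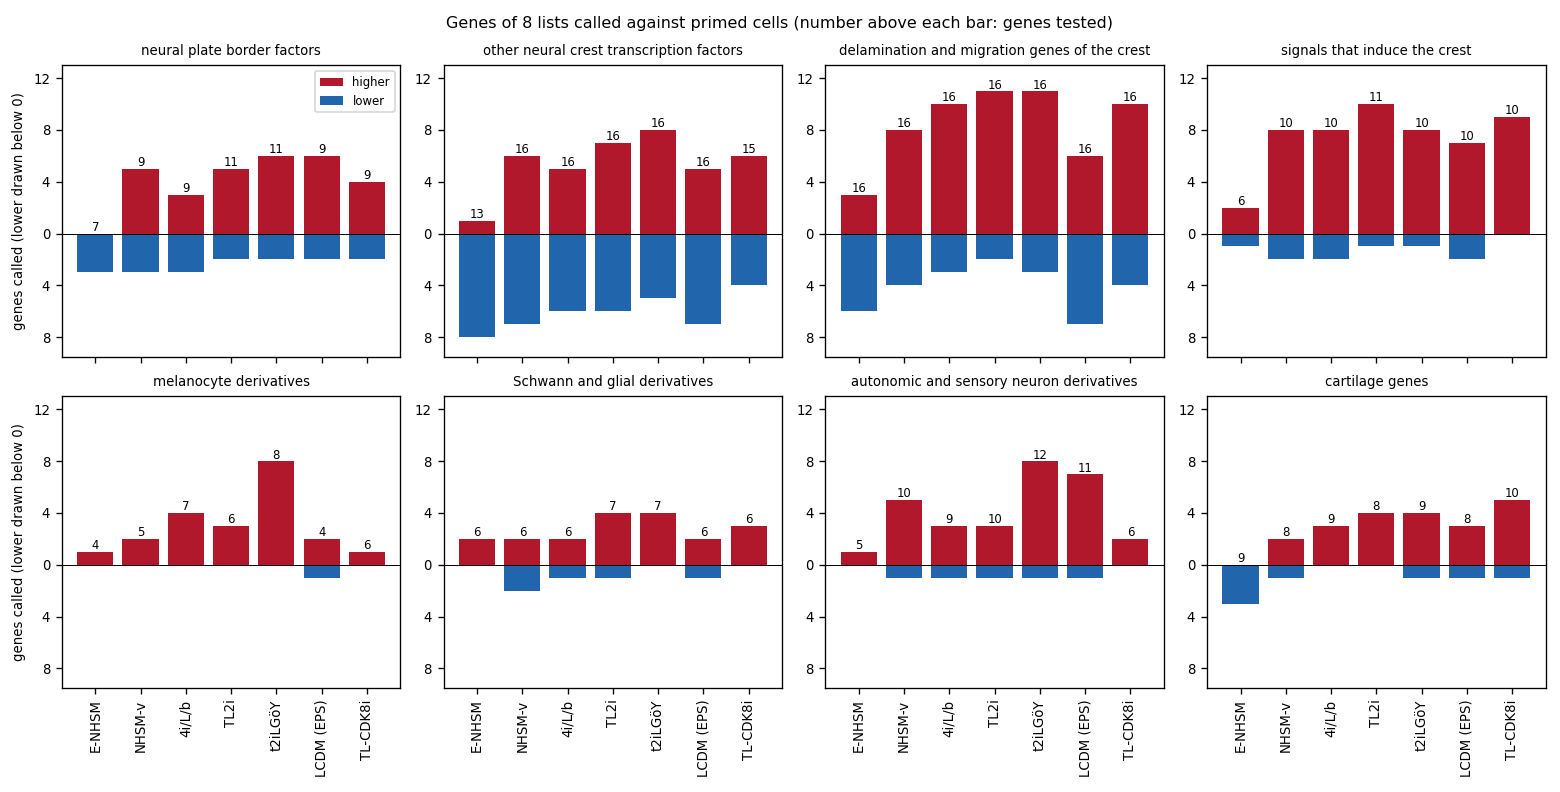
Number of genes of 8 lists called higher (above 0) or lower (below 0) against Primed cells, by protocol, with the number tested above each bar. All 8 melanocyte genes were higher in t2iLGöY, against 1 to 4 in the other protocols, and the signals that induce the crest had 7 to 10 genes higher in all protocols but E-NHSM, which had 2.

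All 8 melanocyte genes were higher in t2iLGöY. The number was 4 of 7 tested in 4i/L/b, 3 of 6 in TL2i, 2 of 5 in NHSM-v, 2 of 4 in LCDM (EPS), 1 of 4 in E-NHSM, and 1 of 6 in TL-CDK8i, and 1 was lower in LCDM (EPS). TYRP1 was tested in t2iLGöY alone. KIT, a receptor of melanoblasts and germ cells, was called in 5 protocols and was not highest in t2iLGöY, with 44.0 ± 12.7 CPM there and 118 ± 5.99 CPM in 4i/L/b (SD, n = 3 each). The pigment genes below were chosen after their values were seen. MITF, the master factor of melanocytes, was at 216, 102, and 224 CPM in the 3 t2iLGöY libraries and between 2.01 and 7.36 CPM (median 3.70, n = 6) in Primed cells (5.48 ± 0.32, edgeR adjusted p = 2.1e-09). TYRP1, an enzyme of melanin synthesis, was at 223, 91.0, and 226 CPM, and it was at most 1.15 CPM in any library of another group (10.99 ± 0.49, edgeR adjusted p = 1.1e-10). MLANA, a melanosome protein, was at 48.8, 18.7, and 60.6 CPM (5.86 ± 0.76, edgeR adjusted p = 1.2e-05), and DCT, another enzyme of melanin synthesis, at 53.9, 20.5, and 51.7 CPM (6.99 ± 0.67, edgeR adjusted p = 4.7e-07). PMEL, which forms the fibrils of the melanosome, was expressed in all groups and reached 849.5, 480.3, and 1083 CPM in t2iLGöY (2.51 ± 0.17, edgeR adjusted p = 1.3e-08). As with SOX10, SNAI2, and ETS1, the second t2iLGöY library was the lowest of the 3 for each of these 5 genes. SOX10 was also high where MITF was not, since TL2i cells had SOX10 at 97.5 to 158 CPM and MITF at 3.97 to 4.72 CPM. The pigment genes are also used by the retinal pigment epithelium. PAX6, a factor of the eye and neural tube, was at 151, 189, and 126 CPM in t2iLGöY, at 68.1, 54.5, and 76.8 CPM in LCDM (EPS), and between 1.86 and 7.79 CPM (median 2.71, n = 6) in Primed cells, and its part in the result was not tested.

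**Figure D5:**
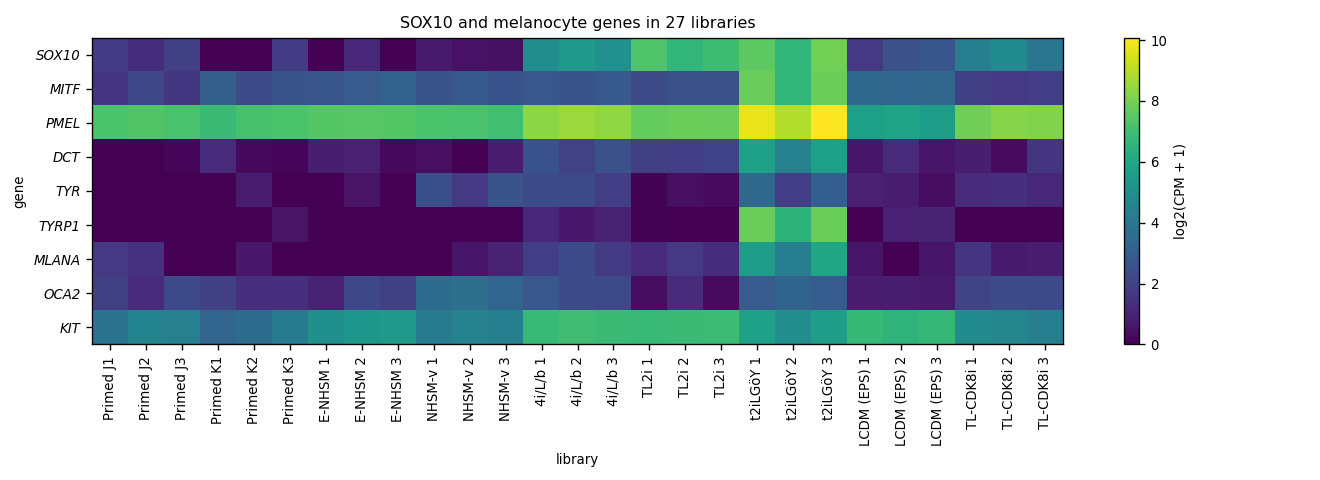
SOX10 and the 8 melanocyte genes in all 27 libraries, with log2(CPM + 1) as colour, genes as rows, and libraries as columns. MITF, DCT, TYRP1, and MLANA were high in the 3 t2iLGöY libraries, whereas SOX10 was also high in TL2i.

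Genes of other crest derivatives were measured as well. Of the Schwann and glial genes, 4 of 7 were higher in TL2i and in t2iLGöY, 3 of 6 in TL-CDK8i, and 2 of 6 in each other protocol. In NHSM-v 2 were lower, and 1 was lower in 4i/L/b, TL2i, and LCDM (EPS). The 2 of 6 stand beside 26.6% to 28.2% of all genes called higher in 4i/L/b, NHSM-v, and LCDM (EPS), and are not set apart from them. FABP7, a lipid-binding protein of glial precursors and of neural progenitors, was called in 5 protocols, and GAP43, a growth-associated protein of axons and of Schwann cell precursors, in 6, with 255 ± 23.2 CPM in t2iLGöY and 239.7 ± 6.52 CPM in LCDM (EPS) (SD, n = 3 each) beside 23.9 ± 4.95 CPM in Primed cells (SD, n = 6). Cartilage genes were higher for 5 of 10 in TL-CDK8i, 4 of 8 in TL2i, 4 of 9 in t2iLGöY, 3 of 9 in 4i/L/b, 3 of 8 in LCDM (EPS), 2 of 8 in NHSM-v, and none of 9 in E-NHSM. The number lower was 3 in E-NHSM, 1 each in NHSM-v, t2iLGöY, LCDM (EPS), and TL-CDK8i, and 0 in TL2i and 4i/L/b. The counts in NHSM-v, 4i/L/b, and LCDM (EPS) stand beside 28.0%, 26.6%, and 28.2% of all genes called higher, and are not set apart from them. Of the 12 cartilage genes, 10 were found under their symbols. COL2A1, the main collagen of cartilage, was called higher in 6 protocols and reached 1733 ± 113 CPM in 4i/L/b (SD, n = 3) beside 11.7 ± 5.69 CPM in Primed cells (SD, n = 6). COL11A1, which assembles with it, was called higher in the same 6 and was at 735 ± 29.2 CPM in NHSM-v (SD, n = 3).

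Markers of other cells also differed between the groups. The summed level of 10 fibroblast and mesenchyme markers was 1969 to 4034 CPM in Primed libraries and 771 to 815 CPM in E-NHSM. It was 20168 to 25720 CPM in 4i/L/b, 17818 to 18384 CPM in NHSM-v, 13467 to 18396 CPM in TL-CDK8i, and 8183 to 15393 CPM in TL2i, with all 10 above the floor in these 4. In t2iLGöY it was 4280 to 4889 CPM, with DCN and LUM, which define fibroblasts, at or under the floor, and in LCDM (EPS) it was 1218 to 1678 CPM. SNAI2 had its lowest mean levels in E-NHSM and LCDM (EPS), the groups with the lowest mesenchyme sums. In E-NHSM, however, SNAI2 overlapped with Primed cells and was not called. The order did not hold throughout. SNAI2 had its highest mean in t2iLGöY, at 52.6 to 98.9 CPM, and was at 19.2 to 25.3 CPM in TL-CDK8i, where the mesenchyme sum was larger. TWIST1 had its highest levels in E-NHSM. COL1A1, a fibrillar collagen, was at 9227 ± 1217 CPM in 4i/L/b (SD, n = 3). The sum of 10 neural tube progenitor markers was 3929 to 4012 CPM in LCDM (EPS) and 2237 to 2572 CPM in Primed cells, with HES5 and SIX3 at or under the floor in Primed, E-NHSM, 4i/L/b, TL2i, and TL-CDK8i cells. The lowest sum was that of E-NHSM, at 1221 to 1358 CPM, with LHX2 at or under the floor as well. For 9 markers of endothelium and blood, cells that also use ETS1, the sum was 153 to 202 CPM in TL-CDK8i, 92.8 to 127 CPM in Primed cells, 50.3 to 60.2 CPM in 4i/L/b, and 22.2 to 32.4 CPM in LCDM (EPS), with PTPRC at or under the floor in 7 of the 8 groups. Mesoderm markers, 8 of 9 found, summed to 57.2 to 108 CPM in TL-CDK8i and to at most 35.9 CPM in any other group. Endoderm markers, 7 in all, were at most 113 CPM in sum, the highest being in TL2i, and 6 trophoblast and amnion markers were highest in TL-CDK8i, at 181 to 261 CPM. The 9 pluripotency markers summed to 6959 to 7716 CPM in Primed, 7083 to 7197 CPM in E-NHSM, and 1770 to 2474 CPM in TL-CDK8i cells, and to at most 493 CPM elsewhere. The part of these markers in the levels of the crest regulators was not tested.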

How the data were processed

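The libraries were bulk, directional mRNA libraries of rhesus PSCs, made from 200 ng of RNA and sequenced as single reads of 75 bp. The authors deposited raw counts per gene symbol, with 1 column per library and no pooling or normalization. The submitters' processing notes name bcl2fastq, cutadapt, HISAT2, and HTSeq. Versions, strand setting, genome build, and annotation are not given in the sources used here, so no positions are printed, and reads shared between paralogs could have been dropped. Primed columns carry the letters J and K, which match the group but no set of the labels, and all 6 were taken as 1 group. All columns were used, and 0 were left over.

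Per comparison, TMM normalization, filterByExpr, and the quasi-likelihood test of edgeR 4.0.16 (R 4.3.3, limma 3.58.1) were run on the libraries of its own groups, with Benjamini-Hochberg adjustment over all genes and a threshold of 0.05. The procedure was tested on data simulated for TL2i against Primed and for TL-CDK8i against TL2i. Far fewer genes were changed there than were called in the real comparisons, so no error rate is drawn from it. Each SE is the size of the fold change divided by the square root of F. For correlations, log2 CPM had a prior count of 2. A group with 3 counts or fewer in each library was taken as at the floor. Bounds set 3 counts in each library of that group. The alternatives were DESeq2 1.42.0, upper-quartile normalization, no filter, at least 10 counts in every library, all 8 groups in 1 fit, a replicate block, Primed libraries J or K alone, and each library left out in turn.

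The 10 regulators and all lists were chosen with earlier results of these data known. Besides the 10, the text names the 3 genes per list with the largest median log2 fold change among those called in the same direction in at least 5 comparisons with Primed cells, the 3 genes most like each regulator, POU5F1, and markers at the floor or over 100 CPM. Other genes are named as chosen after their values were seen. Not every gene that the rule picks is reported here. Of 156 list symbols, 153 were found (not COL9A3, CNMD, and TBXT).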

Additional observations from a re-analysis of the deposited data

Results flagged for a closer look

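Of 9 regulators with counts in the 6 Primed libraries, a library stood apart from the others in 2. NR2F1 was at 0.76 CPM in Primed K2, where the other 5 libraries had 3.24 to 4.58 CPM. NR2F2 was at 18.9 CPM in Primed J3, where the other 5 had 7.33 to 11.3 CPM. Chance marks about 1 in 20 such groups. Without K2 or J3, NR2F1 and NR2F2 remained called in the 5 protocols where both were called higher.

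Protocols that the study relates to each other differed in 16 direct comparisons of single regulators (edgeR's quasi-likelihood test, Benjamini-Hochberg adjusted p under 0.05). In TL-CDK8i against TL2i cells the log2 fold changes were -4.15 for NR2F1, -3.53 for PAX7, -2.92 for NR2F2, -2.67 for SOX10, -1.80 for SOX9, -1.79 for PAX3, -1.76 for FOXD3, -0.98 for SNAI2, and 2.27 for TWIST1. In NHSM-v against E-NHSM cells they were 10.45 for PAX3, 9.48 for NR2F1, 7.24 for NR2F2, 3.71 for SNAI2, 3.52 for SOX9, -2.08 for TWIST1, and -3.05 for FOXD3.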

How the results depend on the processing

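Of 143 counts of called regulators recomputed under alternatives, 140 stayed within 1.5 times the main count. There were 3 exceptions. In E-NHSM against Primed with all 8 groups in 1 fit, 8 were called (3 higher, 5 lower of 10) in place of 5. That fit called 5255 of 14752 genes in all, in place of 3486 of 13304. In LCDM (EPS) against Primed with at least 10 counts in every library, 5 of 6 tested were called in place of 8 of 10. Of all genes it was 6716 of 10677 in place of 7782 of 13625. In NHSM-v against E-NHSM with that filter, 4 of 5 tested were called in place of 7 of 8. Of all genes it was 7990 of 11168 in place of 9141 of 13392. That filter drops a regulator with fewer than 10 counts in any library of the comparison. Among single regulators, 1 value reversed. ETS1 in TL-CDK8i against TL2i was -0.15 and became 0.021 without TL2i replicate 1, uncalled in both, and ranged from -0.29 to 0.021 with each library left out. A call was lost in 37 and gained in 15 of 1326 values, all without a change of sign. Most losses concerned FOXD3 in TL2i, NR2F1 in E-NHSM, SOX9 in TL-CDK8i, SNAI2 in LCDM (EPS), and ETS1 in NHSM-v. DESeq2 gained PAX3 in E-NHSM, at -3.84 (adjusted p = 0.016), and the fit of all 8 groups gained it as well (edgeR adjusted p = 0.00028), with SOX9 in E-NHSM (edgeR adjusted p = 0.00082) and TWIST1 in t2iLGöY and NHSM-v (edgeR adjusted p = 0.01 and 0.035). Upper-quartile normalization gained ETS1 in NHSM-v against E-NHSM, at -0.22 (edgeR adjusted p = 0.037). Other scalings moved the median of all genes by at most 0.0907 in size.

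Same-numbered libraries did not deviate together, with correlations of their deviations from -0.127 to 0.0498, so the numbers were not taken as pairs. With the number as a replicate block, 4 of 9 regulators were called in E-NHSM, beside 3171 of 13304 genes tested. In NHSM-v 6 of 9 were called, beside 7468 of 13268 genes, and in TL-CDK8i 7 of 9, beside 5839 of 13359. In 4i/L/b 9 of 10 were called, beside 7235 of 13558 genes, and in TL2i 9 of 10, beside 6688 of 13808. In t2iLGöY it was 10 of 10, beside 7108 of 13662 genes, and in LCDM (EPS) 7 of 10, beside 7424 of 13625. The block lost NR2F1 in E-NHSM (-3.38, edgeR adjusted p = 0.066), ETS1 in NHSM-v (0.34, 0.061), SNAI2 in LCDM (EPS) (-1.34, 0.1), and SOX9 in TL-CDK8i (1.24, 0.058), and gained TWIST1 in t2iLGöY (1.66, 0.049).

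Depth limits PAX7, SOX10, PAX3, and NR2F1 where they were within a few counts of the floor. Transcript length, feeder cells, and the share of cells expressing a gene were not measured here.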

Other observations

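Genes of autonomic and sensory neurons, a further derivative of the crest, were higher for 8 of 12 tested in t2iLGöY, with 1 lower, and for 7 of 11 in LCDM (EPS), with 1 lower, where 27.1% and 28.2% of all genes were called higher. The number higher was 5 of 10 in NHSM-v, beside 28.0% of all genes called higher. It was 3 of 10 in TL2i, beside 25.6%, and 3 of 9 in 4i/L/b, beside 26.6%. In TL-CDK8i it was 2 of 6, beside 22.3%, and in E-NHSM 1 of 5, beside 11.1%. The counts in TL2i, 4i/L/b, TL-CDK8i, and E-NHSM are not set apart from these shares. In NHSM-v, TL2i, and 4i/L/b 1 was lower, and the numbers tested depend on which genes were counted. PRPH, the intermediate filament of peripheral neurons, was called higher in 5 protocols and was highest in t2iLGöY, at 56.9 ± 4.73 CPM (SD, n = 3). RET, the receptor of enteric and sympathetic precursors, went the other way, lower in 5 protocols and higher in E-NHSM, at 39.5 ± 0.771 CPM (SD, n = 3) beside 14.3 ± 6.16 CPM in Primed cells (SD, n = 6).

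CDH19, a cadherin of Schwann cell precursors chosen after its values were seen, had no count in Primed cells and was at 37.9, 21.9, and 48.7 CPM in t2iLGöY, at least 119-fold higher (edgeR adjusted p = 1.6e-07). In TL2i, which overlapped with t2iLGöY in SOX10, CDH19 was at 3.14, 1.57, and 3.18 CPM, at least 8.69-fold higher (edgeR adjusted p = 0.001). CDH19 was tested in 2 protocols and passed the filter on low counts only through their libraries. Its choice and its tests both rest on these counts, so the values are descriptions. WNT1, a signal of the dorsal neural tube on the crest list and likewise chosen after its values were seen, was at 677, 702, and 626 CPM in t2iLGöY, 83.8, 85.3, and 96.1 CPM in TL2i, and between 0 and 1.40 CPM (median 0, n = 6) in Primed cells.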
